A study of Mus musculus with 8 samples.

Results

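The Agilent mouse array used here carries, beside its gene probes, 16181 probes whose only name is a genomic interval of mouse build mm9 with a strand letter, such as chr16:9129538-9137898_F. Probes of this kind were placed by the manufacturer on intergenic regions thought to give rise to long noncoding RNAs, and they are called region probes here. They were chosen by that form of name from 55681 probes that are no controls. A region probe was kept where, in 1 group or more, the scanner software marked it as well above background on each of the group's arrays. This left 5991 region probes of 30336 kept probes. The files give the intervals by position alone, with no gene name, and what the letters F and R mean for the transcribed strand is not given in the sources used here. Whether a region lies outside genes, or whether its RNA is noncoding, was not tested.

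The series, titled as a study of the transcriptome that depends on ERK, used mouse embryonic stem cells. All cells, controls included, were grown in standard stem cell medium with LIF and PD173074 at 250 nM, which blocks FGF receptors. There were 4 groups of 2 arrays, each array hybridised with total RNA of 1 sample. The untreated cells received no further agent. In the second group cells were stimulated for 8 h with 250 nM 4OHT, a tamoxifen metabolite that switches on proteins fused to an oestrogen receptor domain. The protein switched on here, its promoter and the cell line or clone are not named in the labels. In the third group 4OHT was given for 10 h. In the last group 8 h of 4OHT was followed by 2 h with 1 µM PD0325901, an inhibitor of the kinases MEK1 and MEK2 that activate ERK, and this group is called PD0325901 below. The series text calls the samples of a group biological replicates.

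Long noncoding RNAs are transcripts without a long open reading frame. Many are present at low levels and in few cell types, and those lying between genes are often transcribed near enhancers or promoters. ERK is the last kinase of the FGF receptor cascade. In embryonic stem cells its activity switches on immediate early and feedback genes and favours exit from the naive pluripotent state.

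Markers of embryonic stem cells were present, with 12 of 12 listed genes well above background on all 8 arrays. Genes that report ERK activity moved with the treatments. Of 20 tested genes of ERK feedback and the immediate early response, 18 were higher after 8 h of 4OHT and 17 were lower with PD0325901 than after 10 h. Dusp6, a phosphatase that inactivates ERK, stood at 3.43 and 3.46 on the untreated arrays, 6.32 and 6.26 after 8 h, 6.38 and 6.42 after 10 h, and 0.43 and 0.65 with PD0325901, as log2 signal relative to the 75th percentile of its array. All levels below are on this scale. Egr1, an immediate early transcription factor, rose by 3.83 on the log2 scale at 8 h (adjusted p = 0.00121), and Nanog, a pluripotency factor, fell by 2.59 (adjusted p = 0.00106). Of the 12 listed stem cell markers 2 were lower at 8 h, Nanog and Klf4 (-1.46, adjusted p = 0.0301). Another 2 were higher, Utf1 by 0.93 (adjusted p = 0.0017) and Dppa4 by 0.95 (adjusted p = 0.0016). The median change over the 12 was 0.005. Markers of primitive endoderm were higher in replicate 1 than in replicate 2 of every group for 14 of 14 genes, with medians of 1.39 to 1.61 on the log2 scale. Of 10 listed fibroblast markers, for feeder cells, 6 were tested and 3 were higher at 8 h (Thy1, Vim and S100a4), while Col1a1, Col1a2 and Fn1 changed by -0.27, -0.36 and -0.51 without a call and Col3a1, Postn, Lum and Dcn were not kept. At 10 h 3 were higher and 2 lower, the latter Col1a1 (-0.59, adjusted p = 0.0141) and Fn1 (-0.76, adjusted p = 0.0144). The part of either cell type in the results below was not tested. Of 5974 kept region probes with a value on all arrays, 1 was higher in replicate 1 by more than 1 in every group (0.0167%). Likewise 1 was higher in replicate 2 (0.0167%). Over the 30291 kept probes of all kinds with such values, these counts were 43 (0.142%) and 38 (0.125%).

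The 16181 region probes lie in 3540 intervals from 62 bases to 7.13 Mb long, with a median of 7.32 kb. Of these intervals 1067 were probed on both strands, which gives 4607 region strands with a median of 3 and at most 10 probes each. Intervals overlap: 2101 overlap another one, and merging them leaves 2223 loci. Probes of 1 region or of overlapping regions can read the same transcript and are not independent of each other.

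Region probes were detected less often than the other probes of the array. The kept share was 37.0% of region probes against 61.6% of the other probes. On single arrays 48.0% to 50.2% of region probes were well above background in the replicate 1 arrays and 32.1% to 34.4% in the replicate 2 arrays. The kept probes cover 2340 intervals and 2939 region strands, 1508 of them with at least 2 kept probes. Where an interval was probed on both strands, both were kept in 599, 1 strand in 365 and none in 103. Detection in all 4 groups was reached by 4317 kept region probes (72.1%), against 84.4% of all kept probes. A further 242 (4.04%) were well above background on both arrays of the untreated group alone and 198 (3.31%) of the PD0325901 group alone. The counts were 118 (1.97%) for 8 h alone and 113 (1.89%) for 10 h of 4OHT alone. Over all kept probes the shares were 2.61% for untreated alone, 1.97% for PD0325901 alone, 0.83% for 8 h alone and 0.93% for 10 h alone. A probe that passed through 1 group alone is likely to differ from the others by that choice, so counts are also given over probes measured in both groups. In bulk RNA fewer cells with a transcript and less of it per cell cannot be told apart.

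After 8 h of 4OHT region RNAs moved in both directions. By limma's moderated test with Benjamini-Hochberg adjustment over all 30336 kept probes, 345 region probes were higher and 371 lower than in untreated cells at an adjusted p under 0.05, a call from here on. That is 11.95% of the kept region probes, where 20.2% of all kept probes were called (9.76% higher, 10.4% lower). Of the 4597 region probes well above background on all 4 arrays compared, 508 were called, which is 11.05% against 20.08% of all such probes. The change was at least 2-fold for 170 probes that rose and 131 that fell. The median over all kept region probes was -0.08, and over all kept probes -0.03. All 716 called probes had no overlap between the groups, and so the same direction in replicate 1 as in replicate 2. With 2 arrays per group a call favours such probes, so this is no further support. No overlap was seen in 52.19% of kept region probes and in 63.13% of all kept probes. The replicate number as a block, which is also the row of the slide, gave 479 higher and 615 lower. The split depends on the scaling: centring on the array median shifted all changes up by 0.14 and gave 427 higher and 210 lower, quantile normalization gave 383 and 254, and normexp background correction with an offset of 50 gave 359 and 255. The count of 716 fell to 424 without untreated replicate 1, 394 without untreated replicate 2, 459 without 4OHT 8h replicate 1 and 309 without 4OHT 8h replicate 2.

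**Figure D1:**
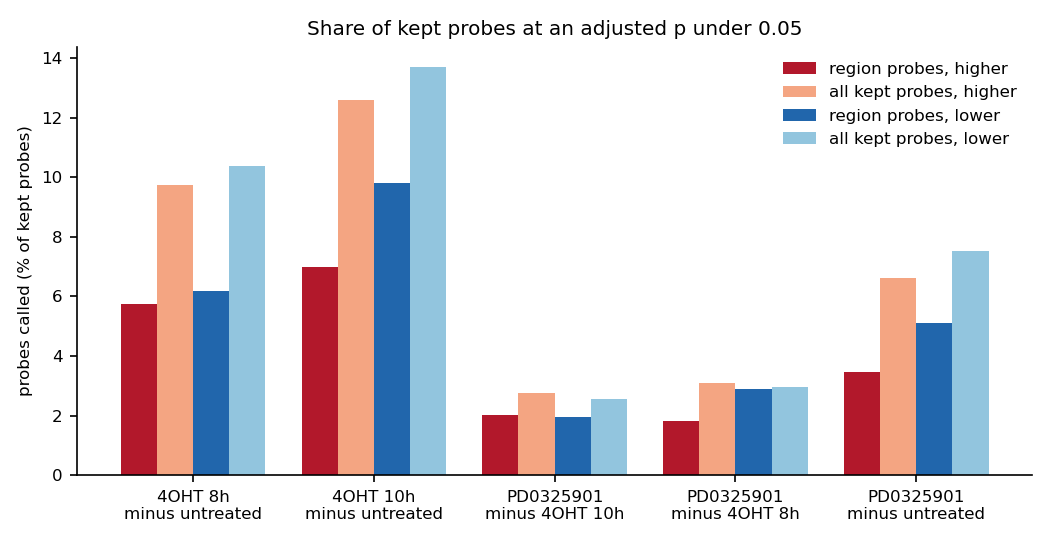
Bars give the share of kept probes (%) called higher or lower in each of 5 comparisons by limma at an adjusted p under 0.05, for the 5991 region probes and for all 30336 kept probes. At 8 h of 4OHT 5.76% of region probes were higher and 6.19% lower, against 9.76% and 10.4% of all kept probes.

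A rise of several probes, measured in every group, came from chr16:9129538-9137898 on the F strand, an interval of 8361 bases with 5 probes there, all kept. Probe A_30_P01030442 stood at -2.90 and -3.14 in untreated cells, -0.22 and -0.44 after 8 h, -0.40 and -0.30 after 10 h, and -0.70 and -0.80 with PD0325901. The untreated arrays were lowest and the 4OHT arrays highest, with the PD0325901 arrays between them and no overlap of those 3 sets. At 8 h this probe was 6.46-fold higher (log2 difference 2.69, SE 0.12, adjusted p = 0.000321), and the other 4 probes were called with differences from 2.22 to 2.68. With normexp its difference was 1.77, still called. The 5 probes on the R strand were not kept. With the inhibitor the region stayed above the untreated level, by 2.38 for probe A_30_P01022163 (adjusted p = 0.000613). Against 10 h of 4OHT that probe differed by -0.40, which was not called (adjusted p = 0.119). A neighbouring region on the F strand, chr16:9158862-9162427, rose by 2.50 at 10 h for probe A_30_P01018097 (adjusted p = 0.00364).

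In several of the largest rises the untreated signal had not passed the mark for well above background, so only a lower bound of the fold can be given. The bound sets the mean of the bright group against, on each array of the dim group, the higher of the probe's own signal and the lowest signal among probes well above background. Here and below, the adjusted p beside a bound is limma's for the fitted difference, which uses the dim signals. It does not test the bound. At chr11:3521324-3539552 on the F strand, probe A_30_P01021727 read -7.18 and -6.09 in untreated cells, neither well above background, then -1.38 and -2.02 after 8 h, -1.37 and -1.63 after 10 h, and -2.92 and -3.25 with PD0325901. The arrays of the 3 treated groups were all above both untreated arrays. The probe was at least 8.63-fold higher at 8 h (adjusted p = 0.00142) and at least 9.95-fold higher at 10 h (adjusted p = 0.000973), and all 3 probes of the region were called at both times. Adjoining intervals on chromosome 2 did likewise. Probe A_30_P01027743 of chr2:128142035-128142481 on the R strand read -5.30 and -5.46 in untreated cells, neither well above background, and -1.91 and -1.93 after 8 h. It was at least 7.29-fold higher (adjusted p = 0.00027), with all 3 probes called, and after 10 h probe A_30_P01023785 of chr2:128137419-128141735 was at least 9.54-fold higher (adjusted p = 0.000603), again with 3 of 3 probes called.

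At 1 interval a large bound came from a single probe. Probe A_30_P01022639 of chr6:47692090-47713542 on the F strand went from -6.07 and -6.15, not well above background, to -1.61 and -1.44 after 8 h, and stayed at -1.97 and -1.55 with PD0325901. The 8 h bound was at least 9.75-fold (adjusted p = 0.000308). The other kept probe of the region changed by 0.01. The locus left by merging overlapping intervals, chr6:47604919-47728525, held 13 kept probes, of which 7 were higher at 8 h and 0 lower. On the R strand of the overlapping chr6:47687025-47728525, 3 of 5 kept probes were higher (range of all 5, -0.003 to 3.10). Size depends on the background step for all such dim probes: with normexp correction and an offset of 50 the log2 differences were 1.48 for the chromosome 11 probe, 1.67 for the chromosome 6 probe and 1.19 for probe A_30_P01027743 at 8 h, each still called. Of 78 named probe changes in all comparisons, 65 were smaller by over 1.5 times with normexp and 3 were no longer called.

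Some other rises came from regions with 1 kept probe or with probes that differed. The largest measured in both groups, probe A_30_P01024506 of chr14:43418592-43428090 on the F strand, the only probe there, stood at -1.55 and -0.66 in untreated cells, 2.07 and 3.10 after 8 h, 2.31 and 3.37 after 10 h, and 2.03 and 2.88 with PD0325901. In every group replicate 2 was the higher one, and the untreated arrays were below all others. The rise at 8 h was 12.9-fold (log2 difference 3.69, SE 0.57, adjusted p = 0.0101), and the call was lost without untreated replicate 1 (adjusted p = 0.0546) or without 4OHT 8h replicate 2 (adjusted p = 0.0517). At chr14:76912477-76931702 on the R strand 3 of 3 kept probes rose, A_30_P01024683 by 2.20, while the other 2 were well above background on only 1 untreated array. With PD0325901 against 10 h A_30_P01024683 differed by -0.55 without a call (adjusted p = 0.0665). The other 2 were called lower (adjusted p = 0.0115 for A_30_P01020393 and 0.0239 for A_30_P01020102), but neither was well above background on a PD0325901 array, so no size is given. At chr19:53517903-53540753, where 6 F probes were kept, A_30_P01024775 alone of them rose. It went from -2.65 and -2.41 to 0.08 and 0.10 at 8 h (log2 difference 2.62, SE 0.14, adjusted p = 0.000455). The other 5 F probes of that interval changed by -0.32 to 0.29, while 2 of 3 kept R probes rose. Probe A_30_P01032087 of the nested interval chr19:53535104-53536627, also on the F strand, rose by 2.21 at 8 h (adjusted p = 0.000844). That probe differed by -1.33 with PD0325901 against 10 h (adjusted p = 0.0104).

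Among the falls at 8 h, the R strand of chr17:15368546-15377747 fell the most of those measured on all arrays. Probe A_30_P01027988 read -0.16 and -0.28 in untreated cells, -2.81 and -2.81 after 8 h, -3.00 and -3.26 after 10 h, and a mean of -1.96 ± 0.05 (SD, n = 2) with PD0325901. Untreated arrays were the highest, the PD0325901 arrays came next, and the 4OHT arrays were lowest with no overlap. The probe was 6.02-fold lower at 8 h (log2 difference -2.59, SE 0.11, adjusted p = 0.000298, and -1.72 with normexp), and the other 2 probes of the region were called lower, at -1.42 and, for A_30_P01032666, which was well above background on only 1 of the 8 h arrays, at -2.52. The interval lies within chr17:15357376-15385701, whose R strand had 2 of 3 kept probes called lower at 8 h (-2.09 for A_30_P01032910, adjusted p = 0.000905) and whose 1 kept F probe changed by 0.21. With PD0325901 the probe A_30_P01027988 was 1.17 above 10 h of 4OHT (adjusted p = 0.00641) and still -1.74 from untreated cells (adjusted p = 0.00141).

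Another fall of several probes was that of chr8:12535648-12544923 on the R strand, where 4 of 5 probes were kept and all 4 were lower at 8 h. For probe A_30_P01029524 the untreated arrays stood at -0.46 and -0.56, the 8 h arrays at -2.89 and -3.12, the 10 h arrays at -3.87 and -4.49, and the PD0325901 arrays at -2.35 and -2.99. The 10 h arrays were the lowest, and the 8 h and PD0325901 arrays overlapped. The difference between PD0325901 and 8 h was 0.34 without a call (adjusted p = 0.554). At 10 h the probe was well above background on 1 of 2 arrays, so the fitted difference of -3.67 from untreated cells (adjusted p = 0.000956) rests in part on a dim signal. So does that of 1.51 between PD0325901 and 10 h (adjusted p = 0.0435). With PD0325901, where both arrays were well above background, the difference from untreated cells was -2.16 (adjusted p = 0.00962). The latter call was lost without untreated replicate 1 (adjusted p = 0.0536) or without untreated replicate 2 (adjusted p = 0.0517). The only kept F probe of the interval changed by 0.47 at 8 h without a call.

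At chr1:115829055-115854155 on the R strand 6 of 7 probes were kept and all 6 were lower at 8 h, with differences of -1.06 for the smallest and a 3.99-fold fall for the largest. Probe A_30_P01027732 read -1.11 and -1.17 in untreated cells, -2.79 and -2.53 after 8 h, -3.15 and -2.94 after 10 h, and -1.47 and -1.82 with PD0325901. The PD0325901 arrays lay between the untreated and the 4OHT arrays with no overlap. The probe differed from untreated cells by -1.52 at 8 h (adjusted p = 0.00285) and by -0.51 with PD0325901, which was not called (adjusted p = 0.0883). The single kept F probe changed by -0.35 at 8 h. Of these calls that of A_30_P01025663 (3.99-fold lower, adjusted p = 0.0161) was lost without untreated replicate 2 (adjusted p = 0.0697) or without 4OHT 8h replicate 1 (adjusted p = 0.0597). With PD0325901 against 10 h 5 of the 6 probes were higher, A_30_P01027732 by 1.40 (adjusted p = 0.0108), and its call was lost without 4OHT 10h replicate 1 (adjusted p = 0.0547), without 4OHT 10h replicate 2 (adjusted p = 0.0518) or without PD0325901 replicate 1 (adjusted p = 0.0505). Further falls at 8 h with every kept probe of the strand called were those of chr2:154235540-154248551 on the R strand (4 probes) and chr1:183951156-183986156 on the R strand (3 probes). In the former A_30_P01026628, the only one well above background on both 8 h arrays, differed by -1.85. In the latter that was so for A_30_P01025752 alone, which differed by -2.09, and A_30_P01025755 was well above background on neither. The call of probe A_30_P01025752 (adjusted p = 0.0144) was lost without 4OHT 8h replicate 1 (adjusted p = 0.0555) and without untreated replicate 2 (adjusted p = 0.0732).

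The named lower bounds of falls at 8 h were at least 3.62-fold for A_30_P01029305 of chr5:22887983-22939658 on the R strand (adjusted p = 0.00148), at least 3.57-fold for A_30_P01030749 of chr12:111617728-111665403 on the R strand (adjusted p = 0.000979) and at least 3.47-fold for A_30_P01021129 of chr5:22890322-22939119 on the R strand (adjusted p = 0.00716). The intervals on chromosome 5 overlap, so these bounds can come from 1 transcript. With normexp the 3 changes were -0.62, -0.47 and -0.62, each called.

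At 10 h of 4OHT the same comparison with untreated cells called more region probes, 418 higher and 587 lower. That is 16.78% of the kept region probes, where 26.3% of all kept probes were called (12.6% higher, 13.7% lower). Over probes measured on all 4 arrays the shares were 15.97% and 26.12%. The median change was -0.12 over region probes and -0.04 over all kept probes. Centring on the array median shifted changes by 0.20 and gave 684 higher and 308 lower, quantile normalization gave 469 and 377, and normexp gave 485 and 324, so these 3 settings turn the excess of falls into one of rises. The replicate block gave 562 higher and 902 lower. Without untreated replicate 1 the count was 623, without untreated replicate 2 it was 578, without 4OHT 10h replicate 1 it was 629 and without 4OHT 10h replicate 2 it was 444. The 8 h and 10 h comparisons share the untreated arrays. Set side by side, probe A_30_P01018089 of chr16:9129538-9137898 changed by 2.67 at 8 h and 2.80 at 10 h, A_30_P01026031 of chr4:129380903-129390686 on the R strand by 1.99 and 2.68, and A_30_P01026628 of chr2:154235540-154248551 by -1.85 and -2.89.

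Between 8 h and 10 h of 4OHT no region probe was called by limma, and 0% of all kept probes were. At an unadjusted p under 0.05 the count of region probes was 414. Leaving out 4OHT 8h replicate 2 gave 1 call, and the replicate block gave 0.

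With the MEK inhibitor for the last 2 h, 121 region probes were higher and 117 lower than after 10 h of 4OHT, the group of equal total time. That is 3.97% of the kept region probes, where 5.28% of all kept probes were called (2.74% higher, 2.54% lower). Over probes measured on all 4 arrays compared the shares were 3.40% and 5.09%. Of the called region probes, 61 rose and 63 fell by at least 2-fold. Centring on the array median gave 92 higher and 136 lower, and the replicate block 274 higher and 264 lower. The count of 238 was 156 without either 4OHT 8h array (replicate 1 or replicate 2), 118 without 4OHT 10h replicate 1, 60 without 4OHT 10h replicate 2, and 82 without PD0325901 replicate 1 or without PD0325901 replicate 2.

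Among the falls with PD0325901 were those of regions that had risen with 4OHT. At chr15:102100397-102105872 on the F strand probe A_30_P01017712 stood at -2.23 and -2.15 in untreated cells, 0.02 and -0.15 after 8 h, -0.09 and -0.35 after 10 h, and -2.36 and -2.24 with PD0325901. The PD0325901 arrays fell at or below the untreated arrays and far from all 4OHT arrays. The fall from 10 h was 4.24-fold (log2 difference -2.08, SE 0.12, adjusted p = 0.00204), and the difference from untreated cells was -0.11 (adjusted p = 0.579). All 3 F probes rose at 8 h and fell with the inhibitor, the other 2 by -1.33 and -1.32 in the latter comparison. The nested interval chr15:102100964-102104552 gave the same picture with 2 further probes, which fell by -2.07 and -2.02.

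On chromosome 4 the R strand of chr4:129380903-129390686 did likewise in 3 of 3 probes. Probe A_30_P01026031 read -3.39 and -3.34 in untreated cells, -1.57 and -1.18 after 8 h, -0.86 and -0.51 after 10 h, and -2.80 and -2.76 with PD0325901. The inhibitor arrays were nearest to the untreated ones and overlapped no other group. The fall was 4.27-fold (log2 difference -2.10, SE 0.17, adjusted p = 0.00434), and the difference from untreated cells was 0.58 (adjusted p = 0.0739). At chr10:94870971-94871658 on the R strand all 3 probes rose at 8 h, A_30_P01027314 by 1.07 (adjusted p = 0.00966), and all 3 fell with PD0325901 against 10 h. The largest fall, -2.01 for A_30_P01024852 (adjusted p = 0.0116), was no longer called without 4OHT 10h replicate 1 (adjusted p = 0.0576), 4OHT 10h replicate 2 (adjusted p = 0.0544), PD0325901 replicate 1 (adjusted p = 0.0567) or PD0325901 replicate 2 (adjusted p = 0.0715). Its probe A_30_P01027314 read -1.10 and -1.41 in untreated cells and -2.01 and -2.04 with PD0325901, which is below untreated cells on both arrays (log2 difference -0.77, adjusted p = 0.0344). At chr19:53517903-53540753 the fall of the F probe A_30_P01024775 was -1.45 (adjusted p = 0.00641), and that of the R probe A_30_P01030158, not well above background with PD0325901, was at least 3.46-fold (adjusted p = 0.0157). The call of the R probe was lost without 4OHT 10h replicate 1 (adjusted p = 0.0719), without 4OHT 10h replicate 2 (adjusted p = 0.0882) and without PD0325901 replicate 1 (adjusted p = 0.0706).

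Among the rises with PD0325901 were those of regions that had fallen with 4OHT. Probe A_30_P01029176 of chr17:21653676-21667959 on the F strand, the only 1 of 3 kept, read -0.40 and -0.57 in untreated cells, -2.36 and -2.68 after 8 h, -3.09 and -3.23 after 10 h, and -1.46 and -1.58 with PD0325901. The inhibitor arrays lay between the 4OHT and untreated arrays and overlapped neither. The rise was 3.13-fold (log2 difference 1.64, SE 0.14, adjusted p = 0.00456, and 0.86 with normexp), and the difference from untreated cells was -1.03 (adjusted p = 0.00962). At chr7:114369337-114407862 on the R strand 3 of 4 kept probes rose, A_30_P01020207 by 1.49 (adjusted p = 0.00505), and at chr5:110261075-110376700 on the R strand both probes rose, A_30_P01021650 by 1.36 (adjusted p = 0.003). At the chromosome 5 interval, arrays with PD0325901 stood at 0.14 and 0.12 and untreated arrays at -0.26 and -0.11, with no call for that difference (adjusted p = 0.0801). A rise from below the background limit, probe A_30_P01026090 of chr7:80766878-80767496 on the R strand, was at least 5.28-fold (adjusted p = 0.0224) with replicates at -3.33 and -1.77. This probe was well above background with PD0325901 alone. It was thus kept only through the group where it is high, and that choice favours a rise. It was not called lower with 4OHT (adjusted p = 0.327 at 8 h and 0.118 at 10 h). The call of its rise was lost with normexp (adjusted p = 0.082), without either 4OHT 8h array (adjusted p = 0.0507), without 4OHT 10h replicate 1 (adjusted p = 0.0949), without 4OHT 10h replicate 2 (adjusted p = 0.0787) and without PD0325901 replicate 2 (adjusted p = 0.0776).

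The change at 8 h and the change with PD0325901 from 10 h share no array and were set against each other. Of the 345 region probes higher at 8 h, 80 were lower with PD0325901, which is 23.2% of the former and 68.4% of the 117 lower ones. Of the 371 lower at 8 h, 91 were higher with PD0325901, which is 24.5% of the former and 75.2% of the 121 higher ones. The same shares over the other probes of the array were 20.5% and 82.0%, and 18.6% and 72.9%. In both comparisons 3 region probes were higher and 4 lower, and of the other probes 15 were higher and 3 lower. The 171 probes called in opposite directions were 340 with the replicate block and between 49 and 103 without 1 of the 8 arrays, with the lowest count without 4OHT 10h replicate 2. Each of the 8 arrays moved that count by over 1.5 times.

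**Figure D2:**
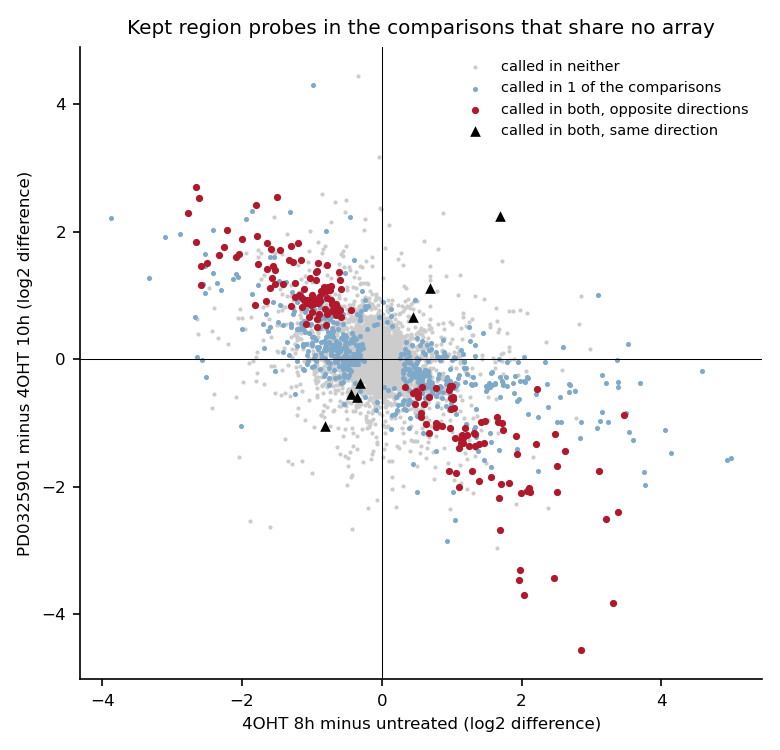
Each point is 1 of the kept region probes, with the log2 difference between 8 h of 4OHT and untreated cells on the x axis and that between PD0325901 and 10 h of 4OHT on the y axis. The 171 probes called in both with opposite directions (red) fill the upper left and lower right, and 3 and 4 probes called in the same direction (triangles) lie in the other corners.

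Probe A_30_P01023533 of chr8:126268510-126290810 on the R strand was one of the 3 that were higher in both. It was well above background on both PD0325901 arrays, on 1 of the 8 h arrays and on no other, so it was kept through the inhibitor group alone. Its signal was -4.19 and -4.17 with PD0325901 and -4.92 and -4.71 after 8 h, and the untreated and 10 h arrays lay lower, where no level can be read. The other kept probe of that strand, A_30_P01017737, was called in neither comparison.

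Against 8 h of 4OHT, the group from which the inhibitor was added, 109 region probes were higher and 173 lower with PD0325901. That is 4.71%, where 6.05% of all kept probes were called (3.08% higher, 2.97% lower). The replicate block gave 254 and 320, and the count of 282 fell to 119 without 4OHT 8h replicate 1, 47 without 4OHT 8h replicate 2, 87 without PD0325901 replicate 1 and 72 without PD0325901 replicate 2. Probe A_30_P01017712 of chr15:102100397-102105872 fell by 2.23 on the log2 scale (adjusted p = 0.00176). Against untreated cells, with both agents' effects together, 207 region probes were higher and 307 lower with PD0325901 (8.58%, where 14.1% of all kept probes were called, 6.61% higher and 7.52% lower). The replicate block gave 363 and 665, and centring on the array median gave 254 and 125, turning the excess of falls into one of rises. That count of 514 fell to 232 without untreated replicate 1, 178 without untreated replicate 2, 261 without PD0325901 replicate 1 and 164 without PD0325901 replicate 2. Against untreated cells A_30_P01024506 of chr14:43418592-43428090 stood at 3.56 and A_30_P01026628 of chr2:154235540-154248551 at -1.87 (adjusted p = 0.0164 and 0.00716). The call of A_30_P01024506 was lost without untreated replicate 1 (adjusted p = 0.0761), without untreated replicate 2 (adjusted p = 0.0517) and without PD0325901 replicate 2 (adjusted p = 0.0834).

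Probes of 1 region strand gave like answers in part. At 8 h 352 region strands with at least 2 kept probes had at least 1 called. In 150 of them 2 or more were called in the same direction, in 65 of these every kept probe was called, in 197 a single probe was called, and in 5 probes were called in both directions. With PD0325901 against 10 h the numbers were 127 region strands with a call, 49 with 2 or more in the same direction, 77 with a single probe and 1 with both directions. At least 3 probes were called in 71 region strands at 8 h, 42 higher and 29 lower. Some of these were singled out after their values were seen, for how many of their probes were called. On the F strand of chr8:119732348-119749198 all 10 probes were kept, 8 were lower at 8 h (range of all 10, -1.60 to -0.43) and 6 were higher with PD0325901 against 10 h (0.10 to 1.11). On the F strand of chr6:52046805-52072744 5 of 6 probes were higher at 8 h, with a median of 1.57, and 5 of 6 were lower with PD0325901, with a median of -0.97. On the R strand of chr4:146507925-146532650 5 of 5 probes were higher at 8 h, within 1.61 to 1.78. On chr11:95627874-95640824 both strands rose, with 7 of 9 kept F probes and 4 of 7 kept R probes higher at 8 h.

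The strands of an interval could be compared in 599 intervals, and each strand was read by the kept probe whose mean was highest. The quantity tested was the difference between the F and R changes. It was called in 8 intervals at 8 h, 14 at 10 h and 7 with PD0325901 against 10 h, which is 1.34%, 2.34% and 1.17% of the 599. At an unadjusted p under 0.05 the counts were 100, 105 and 56. Both strands were called in the same direction in 8 intervals at 8 h and in opposite directions in 1, while 1 strand alone was called in 90. Of those 90 intervals 7 had a called strand difference, so a call on 1 strand alone did not show unequal change.

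The strand difference with the smallest p at 8 h was that of chr15:102100397-102105872. Its F probe A_30_P01017712 rose by 2.12 and its R probe A_30_P01029576 changed by -0.05 (strand difference 2.18, SE 0.23, adjusted p = 0.0202). The R probe stood at -0.71 and -0.67 in untreated cells, -0.84 and -0.64 after 8 h, -0.86 and -0.73 after 10 h, and -0.72 and -0.90 with PD0325901, with every group overlapping another. With PD0325901 the F strand fell and the R strand changed by -0.02 (strand difference -2.06, adjusted p = 0.0148, and 0.0739 over the mean of each strand's kept probes). At chr9:118291593-118324230 the strands moved apart at 8 h, with 0.49 for the F probe A_30_P01021929 and -1.66 for the R probe A_30_P01023296 (strand difference 2.15, SE 0.28, adjusted p = 0.0202). Over the mean of each strand's kept probes this difference was not called (adjusted p = 0.224). The R probe read -0.15 and -0.29 in untreated cells, -1.71 and -2.04 after 8 h, -1.60 and -1.92 after 10 h, and -0.79 and -0.90 with PD0325901. Of the 6 kept R probes there, 4 were lower at 8 h. At chr13:62734450-62785325 the R probe A_30_P01030860 rose by 0.68 while the F probe A_30_P01019786 changed by -0.50 (strand difference -1.18, SE 0.15, adjusted p = 0.0202), and over the strand means the difference was -0.77 without a call (adjusted p = 0.182).

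Arrays of groups outside a comparison enter it only through the shared estimate of the spread. A loss of calls without such an array thus does not tie the calls to it. The strand calls changed in number with the arrays in the fit. They fell to 0 without untreated replicate 1, untreated replicate 2, 4OHT 8h replicate 2 or either PD0325901 array at 8 h and to 3 without either 4OHT 10h array, and the 14 calls at 10 h fell to 0 without any 1 of the 8 arrays. With PD0325901 against 10 h, 2 remained in number without either untreated array, 3 without either 4OHT 8h array, 1 without 4OHT 10h replicate 1, and 0 without 4OHT 10h replicate 2 or either PD0325901 array. The fit on the compared arrays alone gave 0 in each comparison. The 15 named strand differences kept their sign under the alternatives run, but 13 of them were no longer called over the mean of a strand's probes.

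**Figure D3:**
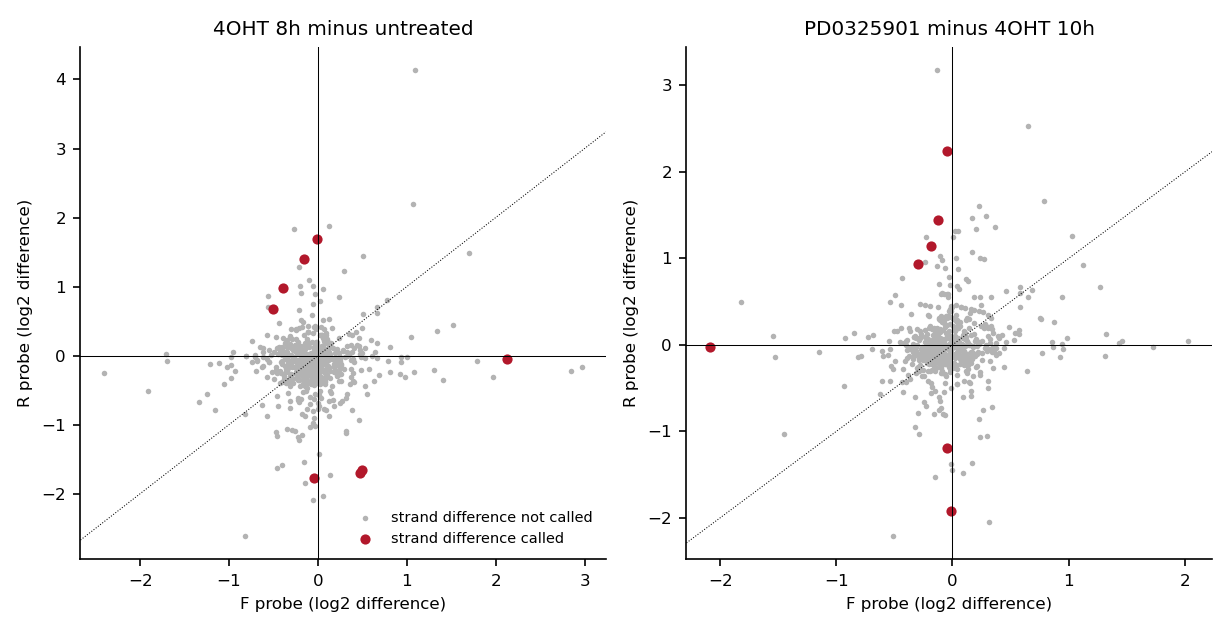
Each point is 1 of 599 intervals with a kept probe on both strands, with the log2 difference of the F probe on the x axis and of the R probe on the y axis, at 8 h of 4OHT against untreated cells (left) and with PD0325901 against 10 h (right). The 8 and 7 intervals with a called strand difference (red) lie away from the dotted line of equal change.

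On chromosome 2 part of the region probes of 1 stretch were lower with 4OHT, and part were higher with PD0325901 than after 10 h. The stretch from 174.5 to 176.5 Mb was singled out after its values were seen, so its counts are a description. It holds 65 region probes in 21 intervals, of which 31 were kept. At 8 h 0 were higher and 10 lower (median -0.52), and with PD0325901 against 10 h 11 were higher and 0 lower (median 0.67). In 8 probes the PD0325901 level was called above untreated cells, and in 1 below. Others moved little: the 3 kept probes of chr2:174917150-174935618 on the R strand changed by -0.11 to -0.01 at 8 h. Probe A_30_P01029117 of chr2:175140765-175141331 on the R strand read -1.98 and -2.05 in untreated cells, -2.85 and -3.04 after 8 h, -2.44 and -2.38 after 10 h, and -0.93 and -1.13 with PD0325901. Its PD0325901 arrays were the highest of all and its 4OHT arrays the lowest, with no overlap. The rise with PD0325901 was 1.38 against 10 h (SE 0.11, adjusted p = 0.00397), and 0.98 against untreated cells (adjusted p = 0.00593). Probe A_30_P01026482 of chr2:174945941-174946507, also on the R strand, gave 1.36 and 1.00 for these comparisons (adjusted p = 0.0182 and 0.0241). Both intervals are 567 bases long. Whether probes of this stretch read copies of 1 sequence was not tested.

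On the X chromosome between 120 and 123 Mb 14 of 54 region probes were kept. In 4 of them the level rose at 8 h and fell with PD0325901 against 10 h. These 4 were well above background on 1 untreated array and on no PD0325901 array, so their PD0325901 level cannot be set against that of untreated cells. This stretch too was singled out after its values were seen. Probe A_30_P01023002 of chrX:120812236-121038407 on the R strand read -3.89 and -5.18 in untreated cells, -1.73 and -1.65 after 8 h, -2.21 and -2.27 after 10 h, and -7.29 and -6.32 with PD0325901. It was well above background on 1 untreated array, on all 4OHT arrays and on no PD0325901 array, and those arrays were the lowest. It was at least 6.66-fold lower with PD0325901 than after 10 h (adjusted p = 0.00914), a call lost without PD0325901 replicate 1 (adjusted p = 0.051) or without 4OHT 10h replicate 2 (adjusted p = 0.0616). Probe A_30_P01027114 of chrX:120353972-120361170 on the R strand was at least 5.28-fold lower (adjusted p = 0.00541), and with normexp the log2 differences of these probes were -0.90 and -0.73. The other 10 kept probes of this stretch were not called in that comparison. Among them A_30_P01020538 and A_30_P01021770 lie on the R strand within the interval of A_30_P01023002. They changed by 0.21 and -0.52 at 8 h without a call. The F probe A_30_P01020013, also within that interval, stood at 3.50 and 3.49 in untreated cells. It rose by 1.19 at 8 h (adjusted p = 0.00161) and was 1.13 above untreated cells with PD0325901 (adjusted p = 0.00358).

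**Figure D4:**
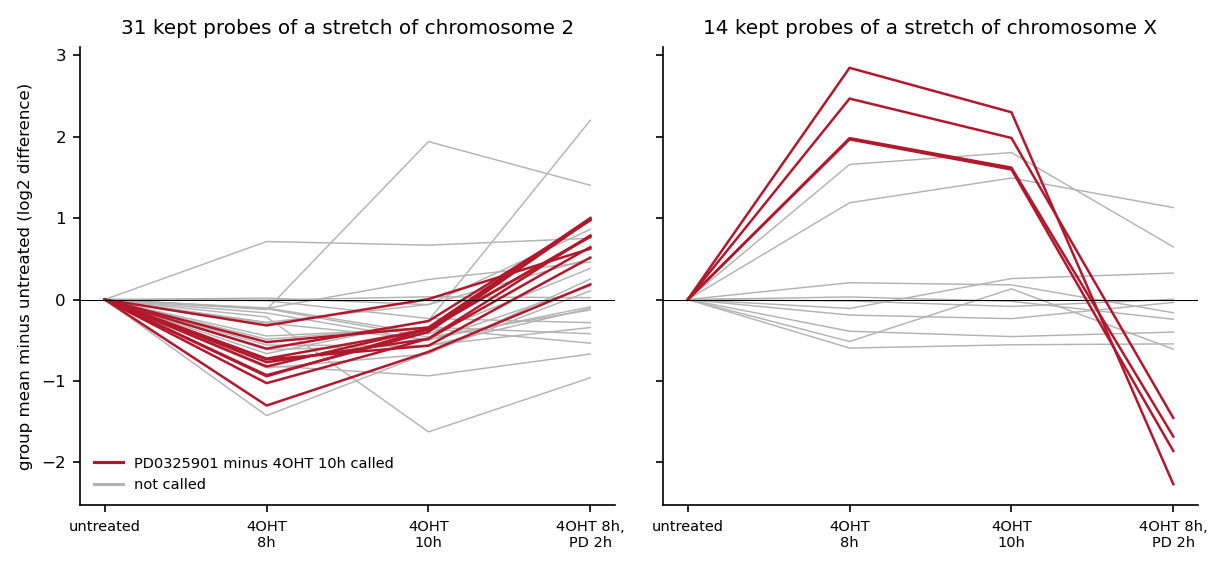
Lines give group means of each kept region probe minus its untreated mean (log2 difference) for the stretches of chromosome 2 (31 probes, left) and of the X chromosome (14 probes, right), in the order untreated, 8 h and 10 h of 4OHT, and PD0325901. Probes called with PD0325901 against 10 h are red: 11 on chromosome 2, all rising, and 4 on the X chromosome, all falling.

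Long noncoding RNA genes known by name gave a smaller set on the same arrays. Of 49 listed genes, a list chosen with earlier results known, 30 had a probe under their symbol and 22 were tested. At 8 h 2 were higher and 2 lower (median 0.10, with -0.03 over all kept probes), where 20.2% of all kept probes were called. At 10 h 5 were higher and 3 lower (median 0.11), where 26.3% of all kept probes were called. With PD0325901 against 10 h 0 were higher and 1 lower (median -0.14), where 5.28% of all kept probes were called. Pvt1, a noncoding gene beside Myc, stood at 0.17 and 0.23 in untreated cells, 1.22 and 1.04 after 8 h, 1.23 and 1.04 after 10 h, and 0.38 and 0.28 with PD0325901. It rose by 0.93 at 8 h (SE 0.11, adjusted p = 0.00404) and fell by 0.80 on the log2 scale with PD0325901 (adjusted p = 0.0172). Mirg, of the imprinted Dlk1-Dio3 cluster, rose by 0.71 at 8 h (adjusted p = 0.00539), Platr10, found by its expression in pluripotent cells, fell by 0.55 (adjusted p = 0.0268), and Snhg18, a host of small nucleolar RNA, fell by 1.03 (adjusted p = 0.0481).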

How the data were processed

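RNA of 8 samples was hybridised to 8 single-colour Agilent arrays on 1 slide, where replicate number is the row and group the column, so column and group cannot be told apart. The deposited values are scanner intensity, background-subtracted by Agilent Feature Extraction 11.0.1.1, per the file headers, which give build mm9. The log2 of each intensity minus the 75th percentile of its array was fitted with limma 3.58.1 in R 4.3.3, with 1 mean per group over all 8 arrays, and p-values were Benjamini-Hochberg adjusted over 30336 kept probes (threshold 0.05). Strand differences were fitted alike over 599 intervals. Fits were tested on simulated data. Tables and figures used Python 3.11.15, pandas 2.3.3 and matplotlib 3.10.9.

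Named in each of the 3 main comparisons were at most 8 region strands per direction, 3 lower bounds per direction, and 5 strand differences. In the other comparisons 3 region strands per direction were named. These region strands had the largest change among called probes measured on all arrays compared and without overlap between the groups compared. A lack of overlap between those groups was thus part of the choice and is no further support. Regions of chromosome 18 were counted but not named. Members and lists were chosen with earlier results of these data known. Alternatives covered background correction, scaling, filter, prior, arrays in the fit, the series value table, 1 probe per feature, the replicate block and leaving out each array. The number of arrays limits the precision. Probe sequences were not used here.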

Additional observations from a re-analysis of the deposited data

How the results depend on the processing

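None of the named changes reversed under the alternatives run. For called region probes, in the order 8 h and 10 h of 4OHT against untreated cells, PD0325901 against 10 h, against 8 h and against untreated cells, and the opposite calls, the counts were 244, 356, 32, 23, 80 and 23 where dim probes were not filtered out, 390, 611, 26, 34, 182 and 19 in fits to the compared arrays alone, and 305, 445, 106, 119, 247 and 69 with 1 probe per feature, which tests fewer probes. Leaving out 1 array gave 309 to 614, 444 to 955, 60 to 166, 47 to 202, 164 to 364, and 49 to 103, and 0 to 1 for 10 h against 8 h.

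The replicate block gave 1094 at 8 h, 538, 574 and 1028 for the PD0325901 comparisons and 340 opposite calls, and left all 78 named probe changes called. Deviations of samples with the same number correlated positively in all 6 pairs of groups, at 0.265 to 0.319 over all kept probes and at 0.0817 to 0.182 over region probes. Arrays of the same number thus shared part of their deviations. With 2 pairs per comparison the numbers were not taken as a pairing in the main fits, where this shared part stays in the spread.

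Strand differences (8, 14 and 7) were 0, 0 and 0 under both of those settings (dim probes kept, compared arrays alone), 17, 23 and 1 with normexp, and 14 at 8 h and 0 with PD0325901 over the mean of a strand's probes, where 13 of the 15 named differences lost their call. The block gave 5 at 10 h and 3 with PD0325901. Leaving out 1 array gave 0 to 8, 0 to 0 and 0 to 3. The cause of these shifts was not tested. Of 78 named probe changes 52 were called under all settings run. The median replicate SD was 0.192 for region probes and 0.135 for all kept probes.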

Other observations

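A single kept region probe was higher in replicate 1 by more than 1 on the log2 scale in every group, A_30_P01028850 of chr19:9060613-9060851 on the F strand, with a mean difference of 1.56. It was well above background on 1 of the untreated arrays and on all arrays of the other groups. A single kept region probe was higher in replicate 2 by more than 1 in every group, A_30_P01020585 of chr2:157361470-157379813 on the F strand. Its mean difference, replicate 1 minus replicate 2, was -1.76. It was well above background with PD0325901 alone, at -3.46 and -1.73, and was thus kept only through the group where it is high.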
